A study of Mus musculus with 103 samples.

Results

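Muscle stem cells of old mice, 24 months of age, were compared with those of middle-aged mice, 12 and 13 months of age, by RNA sequencing of bulk libraries. The comparison holds 3 old and 2 middle-aged libraries, 5 of the 8 bulk libraries and of the 103 samples of the series. Its genes were those with an Ensembl identifier and a mean of at least 5 TPM over these 5 libraries. TPM, a transcript abundance scaled to the same total in every library, is the share of a library's transcripts that a gene takes after correction for gene length. Of 43283 genes with an identifier, 12044 reached that mean.

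All mice were of the strain C57BL/6 and untreated, and the old mice share strain and treatment with the middle-aged ones. The middle-aged side is 1 library at 12 months and 1 at 13 months, so age and library cannot be told apart within it. The design text gives 12 months for both. The labels call the source muscle stem cells, whereas the design text says myoblasts, the dividing descendants of those cells. No sort gate is given, and the protocol includes culture without placing the RNA extraction relative to it. RNA came from 5000 to 10000 cells a library and was amplified before sequencing. The 3 young libraries of the series entered the same fit, to estimate the spread, and are given beside the others. Their labels give 3 months in one field and 2 months in another.

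Muscle stem cells lie between a muscle fibre and the basement membrane around it, where they stay quiescent until injury calls on them to divide and rebuild fibres. They are known by the transcription factors Pax7 and Myf5 and by surface proteins such as Calcr and Cd34. Cd47, the gene the series is about, encodes a surface protein that signals to phagocytes through SIRPα and also binds thrombospondin 1. Chaperones, metallothioneins and immediate early genes are known to respond within a short time to stress and to tissue dissociation.

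The 5 libraries carried the markers of the labelled cell. Pax7 stood at 231 and 127 TPM in the 12-month and the 13-month library, and at 219, 246 and 185 TPM in old libraries 1 to 3. The 2 middle-aged libraries were less alike than any pair of old ones. Across the genes tested, log2(TPM + 1) of the middle-aged pair correlated at r = 0.452, old pairs at 0.679 to 0.706, and a middle-aged with an old library at 0.515 to 0.561. These are correlations over genes, which are not independent replicates. The 12-month library was higher than the 13-month library by 1 log2 unit or more for 3824 genes, and the reverse held for 1788. Of the genes tested, 3608 (30.0%) were listed at 0 in at least 1 of the 5 libraries. Mitochondrially encoded genes took 32.7% and 42.2% of TPM in the middle-aged libraries and 46.5%, 35.3% and 37.1% in the old ones. TPM do not show how many reads were counted in a library.

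**Figure D1:**
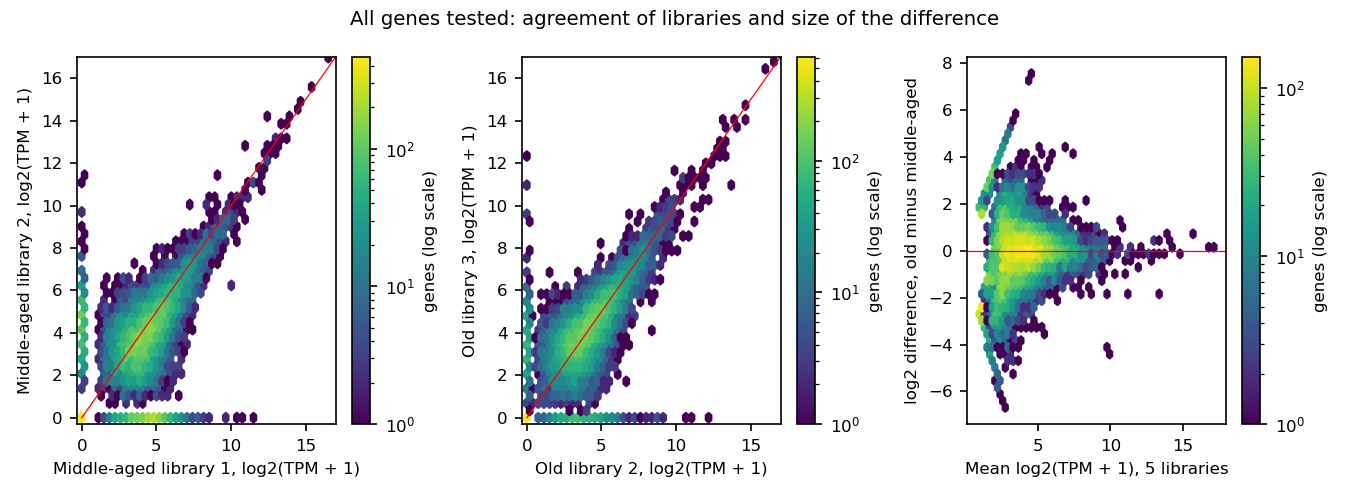
Number of genes (colour, log scale) at each pair of levels: the 12-month against the 13-month library (left) and old library 2 against old library 3 (middle), both in log2(TPM + 1), and the difference of old from middle-aged means against the mean of the 5 libraries (right). The cloud of the middle-aged pair (r = 0.452) is wider than that of the old pair, and the streaks at the left of the right panel are genes listed at 0 in every library of one age.

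No single gene passed the test. With limma on log2(TPM + 1), 0 of 12044 genes had a Benjamini-Hochberg adjusted p under 0.05 in either direction (0% called), and the smallest adjusted p was 0.121. At an unadjusted p under 0.05, limma placed 377 genes higher in the old cells (3.13% of genes tested) and 511 lower (4.24%), 888 in all (7.37%). All 3 old libraries lay above both middle-aged ones for 1199 genes (9.96%) and below both for 1684 (14%). The median log2 difference over all genes was -0.07, 46.8% of differences were above 0, and the median standard error was 0.85, so that a difference of 1 log2 unit was about the size of its error for a typical gene. When each library was centred on its own median, the median difference moved to 0.15 and the split at an unadjusted p under 0.05 turned to 666 higher and 358 lower (663 and 510 after quantile normalization). Without the 12-month library 200 genes passed the limma threshold, and without the 13-month library 277. Only 54 were shared, 27% of the 200 and 19.5% of the 277, and 194 of the 200 and 269 of the 277 were listed at 0 in at least 1 library. The genes below are therefore described by their values in each library, and none passed the threshold in this fit.

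Cd47 was higher in every old library than in any middle-aged or young one. The gene (chr16:49800533-49915010 of mm10, plus strand) stood at 74.5 TPM in the 12-month and 67.1 TPM in the 13-month library. Old libraries held 107, 151 and 132 TPM, and the young ones averaged 75.6 ± 10.4 TPM (SD, n = 3). The old and middle-aged values did not overlap, with a log2 difference of 0.85 (standard error 0.32, limma adjusted p = 0.621). An exact two-sided permutation test over the 10 ways to assign the libraries to the ages gave p = 0.1, the smallest that this number of libraries allows. Without any 1 library the difference ranged from 0.74 to 0.99, and over all alternatives the limma adjusted p ranged from 0.305 to 0.853.

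The partners of Cd47 showed no such separation. Thbs1, which encodes thrombospondin 1, stood at 32.8 and 51.4 TPM in the middle-aged libraries and at 23.3, 45.1 and 15.98 TPM in the old ones. Sirpa, which encodes the receptor SIRPα, stood at 35.9 and 27.1 TPM against 36.7, 12.4 and 13.9 TPM. For both genes the ages overlapped. Of 19 tested genes for Cd47 ligands, receptors and other signals to phagocytes, 10 had a difference above 0 and 9 below, with a median of 0.06, close to that of all genes. Cd24a, whose product also restrains phagocytes, lay on the other side from Cd47, at 21.8 and 23.3 TPM in the middle-aged and at 7.11, 4.78 and 8.68 TPM in the old libraries. Cd200, a further inhibitory surface protein, overlapped between the ages at 269.6 and 390.4 TPM against 129, 240.3 and 279.8 TPM.

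The 12 genes of smallest unadjusted p with lower values in old cells were chosen by that p. Among them, Mecom, Nme7, Acbd6, Csmd3, Otoa and Syt2 reached the mean of 5 TPM only through the middle-aged libraries. Their old means were 0.82 (Csmd3) to 4.53 TPM (Otoa), so the filter favoured their direction. Mecom, a zinc finger transcription factor (chr3:29951296-30548008), stood at 51.95 and 37.2 TPM in the middle-aged libraries and at 3.54, 1.11 and 4.14 TPM in the old ones. Its log2 difference was -3.62 (standard error 0.69, limma adjusted p = 0.298), and the young libraries lay between, at 10.4, 10.3 and 22.9 TPM. Trib1, a pseudokinase that steers proteins to degradation (chr15:59648350-59657099), stood at 267 and 348 TPM against 129, 95.02 and 96.7 TPM, a log2 difference of -1.52 (standard error 0.31, limma adjusted p = 0.369). Without the 12-month library Trib1 passed the limma threshold, with an adjusted p of 0.0388 and a difference of -1.71. The 2 middle-aged libraries were the highest of all 8 for Trib1, and the young ones the lowest, at 39.8 to 45.5 TPM.

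Errfi1, a feedback inhibitor of the epidermal growth factor receptor, stood at 590.0 and 1139 TPM in the middle-aged libraries and at 328, 239.7 and 199.8 TPM in the old ones. The difference was -1.71 log2 units, and the young libraries, at 427 to 631 TPM, overlapped the middle-aged. Odc1, the rate-limiting enzyme of polyamine synthesis, stood at 265 and 302 TPM against 136, 94.6 and 94.4 TPM, a difference of -1.40. Old libraries 2 and 3 were nearly equal for Odc1, and the young ones stood at 78.6 to 123 TPM. Surf6, a nucleolar protein of ribosome production, stood at 49.7 and 35.5 TPM against 6.94, 3.73 and 13.96 TPM, with young libraries at 16.6 to 20.7 TPM. For Mecom, Trib1, Odc1 and Surf6 both middle-aged libraries were the highest of all 8. The other 7 genes of these 12 were Nme7, Acbd6, Sfi1, Csmd3, Ubqln4, Otoa and Syt2. They reached -3.85 log2 units for Acbd6, which stood at 87.3 and 40.9 TPM in the middle-aged and at 1.43, 5.03 and 4.18 TPM in the old libraries, with the young ones spread from 6.89 to 47.3 TPM. Nme7 overlaps Atp1b1, Sfi1 overlaps Drg1, Syt2 overlaps Ppp1r12b, and Mecom and Col15a1 overlap predicted genes. The strand of the reads is not stated, so reads of overlapping genes may be mixed. Limma adjusted p was 0.298 to 0.459 over the 12. Without the 13-month library, Ubqln4 and Syt2 passed the limma threshold (adjusted p = 0.0228 and 0.0481), and Syt2 also did in limma without the intensity trend (adjusted p = 0.0382).

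Among genes higher in old cells, the smallest unadjusted p belonged to Col15a1, a collagen of the basement membrane zone (chr4:47208161-47313167). It stood at 18.1 and 24.1 TPM in the middle-aged libraries and at 58.9, 95.7 and 122 TPM in the old ones, a log2 difference of 2.03 (standard error 0.42, limma adjusted p = 0.381). The young libraries, at 38.4 to 60.6 TPM, were also above both middle-aged ones. Dbi, which encodes an acyl-CoA binding protein, stood at 32.9 and 80.9 TPM against 147, 290.5 and 258 TPM, a difference of 2.09. Its difference was 1.45 without the 12-month and 2.72 without the 13-month library, and young Dbi (72.8 to 122 TPM) overlapped the middle-aged values. Cflar, an inhibitor of caspase-8, stood at 66.1 and 41.1 TPM against 145, 167 and 102 TPM, with young libraries at 163 to 195 TPM. Each old library lay above both middle-aged ones, with the 2 middle-aged values further apart in ratio for Dbi than for Cflar. Hdac1, a histone deacetylase, stood at 7.42 and 19.1 TPM against 80.3, 47.2 and 34.1 TPM, with young libraries at 25.04 to 28.9 TPM. S100a4, a calcium-binding protein, stood at 88.4 and 39.5 TPM against 266, 265 and 117 TPM, and young libraries at 88.4 to 116 TPM overlapped the middle-aged. For Col15a1, Cflar and Hdac1 the middle-aged libraries were thus the lowest of all 8.

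The remaining 7 of the 12 were Kif3a (a kinesin motor of cilia), Abcc5, Gatc, Lrrn1, Mysm1 (a histone deubiquitinase), Dennd2a and Ftl1, the ferritin light chain. Their differences were up to 2.72 log2 units, for Dennd2a. Abcc5 and Dennd2a, with middle-aged means of 4.98 and 4.42 TPM, reached the mean of 5 TPM only through the old libraries. Ftl1 stood at 87.7 and 43.1 TPM in the middle-aged and at 181, 198 and 159 TPM in the old libraries, and its reads are uncertain because ferritin genes have near-identical pseudogenes. Limma adjusted p was 0.381 to 0.461 over the 12. The young libraries stood at 126 to 266 TPM for Ftl1, above both middle-aged ones. A comparison of young with middle-aged cells would use the same 2 middle-aged libraries, so it is not independent of this one.

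**Figure D2:**
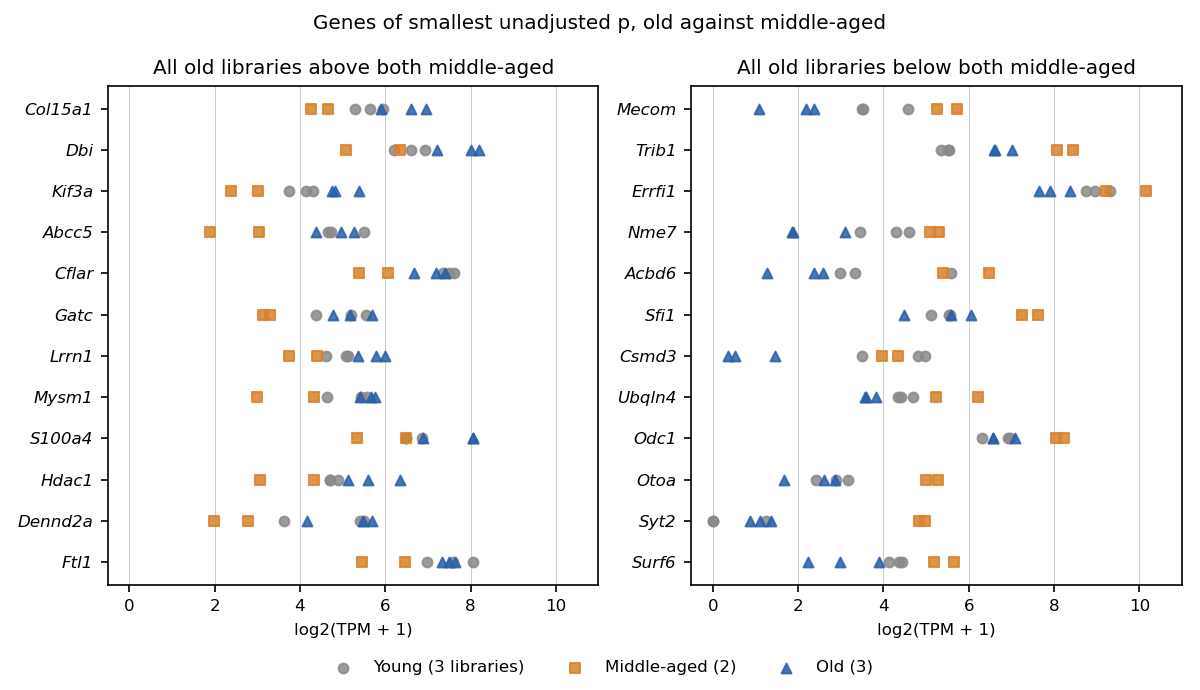
Level of each gene in log2(TPM + 1) on the horizontal axis, 1 point a library, for the 12 genes of smallest unadjusted p with all old libraries above (left) or below (right) both middle-aged ones. The middle-aged squares stand apart from the old triangles because the genes were chosen so. The log2 differences run from 1.36 to 2.72 on the left and from -3.85 to -1.40 on the right.

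Chaperone and metallothionein genes were among the most abundant with lower values in old cells. Chaperones fold proteins and protect them under heat or other stress, Hspa5 does so in the endoplasmic reticulum, and metallothioneins bind zinc and copper. The 250 bases before the RefSeq start (GRCm38.p6) of 4 genes described next are shown, 5′ to 3′ on the gene's strand. Capitals mark matches, on either strand, to CCAAT followed after any 9 bases by CCACG (the endoplasmic reticulum stress element) in Hspa5, to GAANNTTC or TTCNNGAA (a pair of heat shock units) in Hsph1, and to TGCGCNC or TGCACNC (the metal response core) in Mt1 and Mt2. The windows are chr2:34771840-34772089 (Hspa5, plus strand), chr5:149636337-149636586 (Hsph1, minus strand), chr8:94178839-94179088 (Mt1, plus strand) and chr8:94172368-94172617 (Mt2, plus strand). Annotated starts can differ, and GENCODE vM21 starts Mt2 at 94172664, past the end of its window. A window need not hold the promoter in use, and bases outside the windows were not searched.
Hspa5: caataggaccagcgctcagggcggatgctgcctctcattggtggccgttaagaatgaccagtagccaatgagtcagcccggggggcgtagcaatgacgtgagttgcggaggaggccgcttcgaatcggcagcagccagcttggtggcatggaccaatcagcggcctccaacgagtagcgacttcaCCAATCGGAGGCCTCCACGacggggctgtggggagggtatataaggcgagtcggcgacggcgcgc
Hsph1: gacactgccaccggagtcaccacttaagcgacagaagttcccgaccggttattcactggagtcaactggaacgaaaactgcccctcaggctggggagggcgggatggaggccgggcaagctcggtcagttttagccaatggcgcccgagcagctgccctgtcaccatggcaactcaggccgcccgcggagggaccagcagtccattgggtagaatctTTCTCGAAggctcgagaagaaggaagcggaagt
Mt1: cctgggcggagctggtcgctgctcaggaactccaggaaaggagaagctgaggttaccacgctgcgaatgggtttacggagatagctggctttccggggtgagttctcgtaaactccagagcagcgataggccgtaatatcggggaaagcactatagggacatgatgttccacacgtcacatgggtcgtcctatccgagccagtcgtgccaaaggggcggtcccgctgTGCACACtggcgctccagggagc
Mt2: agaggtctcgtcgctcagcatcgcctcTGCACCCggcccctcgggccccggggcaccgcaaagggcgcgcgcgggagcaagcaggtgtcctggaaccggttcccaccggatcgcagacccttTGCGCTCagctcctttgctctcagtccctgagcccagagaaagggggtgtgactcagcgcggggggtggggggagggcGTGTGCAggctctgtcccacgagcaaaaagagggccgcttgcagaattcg
The stress element letters were found in 0.113% of the 32851 RefSeq promoter windows of this length, the heat shock pair in 12.8% and the metal response core in 21.4%. The pair is the shorter part of a heat shock element of 3 units, GAA and TTC in turn with 2 bases between units, starting with either, which was found in 0.466% of windows. Of the 21 tested chaperone genes with a promoter in the table, 9 held the pair, Hsph1 among them. The longer element was held by 3 (Dnajb6, Hspd1 and Hspe1), so not by Hsph1, and the stress element by 3 (Dnajc3, Hsp90b1 and Hspa5). A match is a description of the letters.

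Hspa5, whose window holds the stress element, stood at 935 and 1283 TPM in the middle-aged libraries and at 576, 539.6 and 455 TPM in the old ones. The log2 difference was -1.07 (standard error 0.27, limma adjusted p = 0.461). Bag3, which couples chaperones to autophagy, stood at 151 and 137 TPM against 61.04, 59.4 and 59.9 TPM, a difference of -1.24. All 3 old libraries lay within a narrow band below both middle-aged ones for these 2 genes. Hsph1, a nucleotide exchange factor of Hsp70, stood at 346 and 1117 TPM against 214, 317 and 138 TPM. Its difference of -1.56 was -0.72 without the 13-month library, which held the high value, and -2.40 without the 12-month library. Dnajb1, a co-chaperone of Hsp70, stood at 281 and 519.9 TPM against 171, 219 and 55.8 TPM, a difference of -1.57.

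The whole list of heat shock proteins and DnaJ chaperones had a median near that of all genes. Of 28 tested members, 19 had a difference below 0 and 9 above, with a median of -0.22 against -0.07 for all genes. At an unadjusted p under 0.05, 5 of the 28 members were lower and 0 higher, against 4.24% and 3.13% of all genes. None had an adjusted p under 0.05. All 3 old libraries lay below both middle-aged ones for 6 (21.4% of the list, against 14% of all genes) and above both for 2 (7.14%, against 9.96%). Centred on library medians, the median of the list was 0.00 and that of all genes 0.15.

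Mt1 stood at 352 and 751 TPM in the middle-aged libraries and at 191, 142 and 87.2 TPM in the old ones, a log2 difference of -1.94 (standard error 0.52, limma adjusted p = 0.461). Mt2, its neighbour on chromosome 8, stood at 4424 and 5858 TPM against 2051, 2655 and 577 TPM, a difference of -1.80. Txnrd1, which keeps thioredoxin reduced, stood at 57.4 and 74.4 TPM against 37.1, 30.6 and 11.4 TPM, a difference of -1.43. In all 3 genes both middle-aged libraries were the highest of the 8, with young Mt2 at 761 to 2132 TPM. Their list as a whole did not lie below 0. Among 26 tested antioxidant enzymes and metallothioneins, 16 differences were above 0 and 10 below, the median was 0.23, and 3 members (11.5%) had old values below both middle-aged ones, against 14% of all genes.

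**Figure D3:**
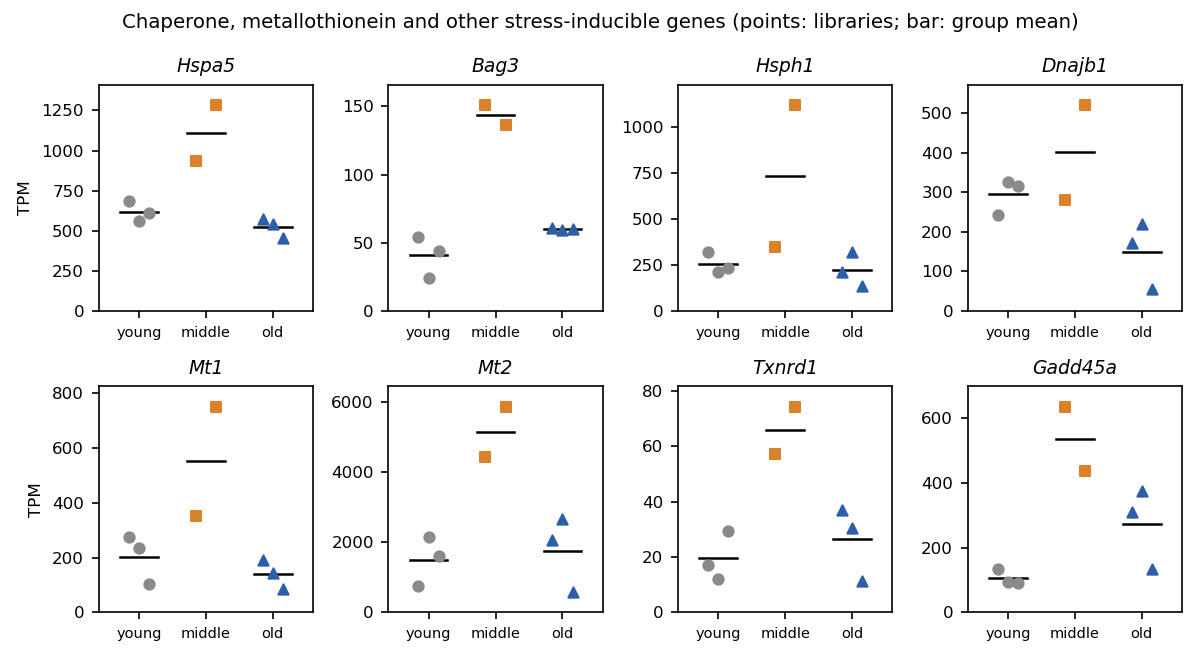
TPM (vertical axis, from 0, scaled for each gene) of 8 stress-inducible genes in young, middle-aged and old libraries, 1 point a library with a bar at the group mean. Both middle-aged squares lie above all 3 old triangles in each gene, and for Hsph1 and Dnajb1 the 13-month library sets much of the gap.

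Several genes that respond to growth signals and damage also stood lower in old cells. Gadd45a, a stress-induced regulator of the cell cycle, stood at 635 and 437 TPM in the middle-aged libraries and at 311, 373 and 134 TPM in the old ones, a log2 difference of -1.07. Btg1, an inhibitor of proliferation, stood at 207 and 178 TPM against 100.4, 116 and 103 TPM. Myc, a driver of growth, stood at 193 and 338 TPM against 136, 119 and 162 TPM. The mRNA decay factor Zfp36l1 overlapped, at 3886 and 2316 TPM against 1606, 2593 and 891 TPM. Of 28 tested immediate early genes, 20 had a difference below 0 and 8 above, with a median of -0.17. After centring on library medians it was 0.05, and that of all genes 0.15. At an unadjusted p under 0.05, 2 of the 28 were lower, a share close to the 4.24% of all genes, and 0 higher. Cdkn1a, which encodes the cell cycle inhibitor p21, did not separate the ages, at 41.2 and 269 TPM in the middle-aged and 137, 137 and 104 TPM in the old libraries. Its difference of 0.24 became -1.10 without the 12-month library. The 22 tested cyclin-dependent kinase inhibitors and p53 targets split evenly, 11 above 0 and 11 below.

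The prostaglandin E2 genes had a median difference of -1.20, the lowest of the 27 lists of processes, but from 6 tested members of 14. With a minimum mean of 1 TPM, which lets more members in, it was -0.03. Prostaglandin E2 is released from membrane lipid by Pla2g4a, made by Ptgs1 or Ptgs2 and then a synthase, taken up for breakdown by Slco2a1, and degraded by Hpgd. Slco2a1 stood at 53.1 and 70.4 TPM in the middle-aged libraries and at 15.6, 16.2 and 14.1 TPM in the old ones, a log2 difference of -1.93 (standard error 0.52, limma adjusted p = 0.461). The old libraries were close to one another and far below both middle-aged ones. Pla2g4a stood at 16.8 and 13.4 TPM against 5.56, 3.56 and 2.13 TPM. Ptgs1 stood at 29.3 and 15.5 TPM against 1.51, 0 and 5.90 TPM. All old libraries lay below both middle-aged ones for these 3 members (50% of those tested, against 14% of all genes) and above both for 0. Pla2g4a and Ptgs1 reached the mean of 5 TPM only through the middle-aged libraries, with old means of 3.75 and 2.47 TPM. The filter thus favoured members lower in old cells, and the share of 50% cannot be read as a result about the list. Among members above 0 in all 5 libraries the median was -0.57. The synthase Ptges3 (144.7 and 127 TPM against 81.3, 128 and 72.0 TPM) and the receptor Ptger4 (12.1 and 4.11 TPM against 9.03, 6.10 and 6.17 TPM) overlapped between the ages. Hpgd was too low to test, at 4.63 and 4.11 TPM in the middle-aged libraries and listed at 0 in the 3 old and 3 young ones.

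The list of insulin-like growth factors, their binding proteins and imprinted growth genes lay in the other direction. Imprinted genes are expressed from a single parental copy, and several restrain growth or mark quiescent stem cells. Of 18 tested members, 17 had a difference above 0 and 1 below, with a median of 0.58, and 0.48 to 0.80 under the alternatives. At an unadjusted p under 0.05, 3 of the 18 were higher and 0 lower, against 3.13% and 4.24% of all genes. All old libraries lay above both middle-aged ones for 7 (38.9%, against 9.96% of all genes) and below both for 0. The list has no member with an adjusted p under 0.05.

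Igfbp5, a binding protein secreted by muscle cells, stood at 132 and 179 TPM in the middle-aged libraries and at 258, 309.5 and 473 TPM in the old ones. Its log2 difference was 1.12 (standard error 0.33, limma adjusted p = 0.528). Peg3, an imprinted transcription factor of muscle stem cells, stood at 609 and 419 TPM against 855, 946 and 866 TPM, a difference of 0.81. The young libraries for Peg3, at 726 to 861 TPM, were also above both middle-aged ones. Peg3 was thus lowest in the 13-month library of all 8. Cdkn1c, the imprinted cell cycle inhibitor p57, was steady within each age, at 8.33 and 11.1 TPM against 24.8, 25.8 and 23.2 TPM, with young libraries at 5.43 to 12.4 TPM. H19, an imprinted long noncoding RNA, was listed at 0 in the 12-month library, stood at 16.7 TPM in the 13-month library and at 15.4, 24.0 and 52.4 TPM in the old ones. Without the 13-month library, H19 passed the limma threshold (adjusted p = 0.0444) against the lone value of 0.

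Genes of class I antigen presentation lay mostly above 0, and interferon genes were split. B2m, the light chain of every class I molecule, stood at 303 and 353 TPM in the middle-aged libraries and at 509, 593 and 589 TPM in the old ones, a log2 difference of 0.78 (standard error 0.28, limma adjusted p = 0.598). H2-D1, a class I heavy chain, stood at 54.04 and 98.8 TPM against 112, 116 and 101 TPM. Class I genes resemble one another, so reads of H2-D1 may be split among them. Of 17 tested class I presentation genes, 12 differences were above 0 and 5 below, with a median of 0.41 (0.11 to 0.63 under the alternatives). Among members above 0 in all 5 libraries the median was 0.19. The old libraries lay above both middle-aged ones for 4 (23.5%, against 9.96% of all genes) and below both for 1 (5.88%, against 14%). The interferon list had 12 differences above 0 and 12 below. In it Irf7, the master factor of the response, stood at 45.2 and 15.6 TPM against 0, 5.01 and 3.25 TPM, whereas Ifitm3 overlapped at 156 and 379.8 TPM against 431, 346 and 635 TPM. Irf7 reached the mean of 5 TPM only through the middle-aged libraries, with an old mean of 2.75 TPM.

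Osmr, the oncostatin M receptor subunit, stood at 109 and 113 TPM in the middle-aged libraries and at 56.5, 61.1 and 43 TPM in the old ones, a log2 difference of -1.06. Clcf1, a cytokine of the same family, stood at 76.5 and 82.7 TPM against 48.3, 56.5 and 59.6 TPM. The whole list of the interleukin 6 family and its JAK-STAT genes, these 2 included, was spread on both sides, 10 above 0 and 9 below of 19 tested. Of 21 tested NF-kappaB targets and chemokines, 10 lay above 0 and 11 below. Nfkbiz and Tnfaip3, feedback regulators of that pathway, overlapped between the ages. They stood at 232 and 105 TPM against 86.4, 124 and 66.3 TPM, and at 69.2 and 142 TPM against 106, 57.1 and 28.9 TPM.

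**Figure D4:**
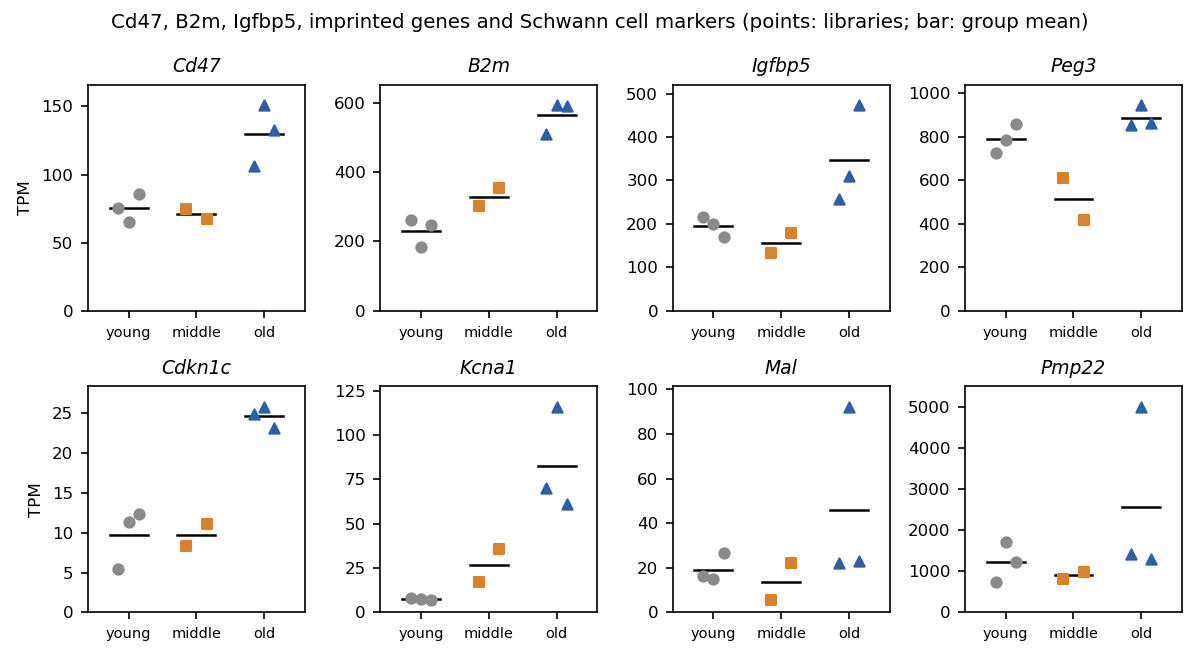
TPM (vertical axis, from 0, scaled for each gene) of Cd47, B2m, Igfbp5, Peg3, Cdkn1c and the Schwann cell markers Kcna1, Mal and Pmp22 in young, middle-aged and old libraries, 1 point a library with a bar at the group mean. All 3 old triangles lie above both middle-aged squares in each gene, and for Pmp22 old library 2, at 5013 TPM, sets most of the old mean.

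Of 26 stem cell identity genes, 23 overlapped between the ages, and overlap was also the usual case over all genes. Old libraries lay above both middle-aged ones for 2 (7.69%, against 9.96% of all genes) and below both for 1 (3.85%, against 14%). Myf5 stood at 299.9 and 169.7 TPM in the middle-aged libraries and at 116, 286 and 185 TPM in the old ones. Calcr stood at 294 and 96.2 TPM against 110, 219 and 168 TPM, and Cd34 at 105 and 40.7 TPM against 37.8, 60.2 and 92.9 TPM. Myod1, the factor of commitment to muscle, stood at 4.26 and 37.8 TPM against 9.24, 20.2 and 10.2 TPM. In these 4 genes the spread between the 2 middle-aged libraries covered most or all old values. The differences of -0.30 for Myf5, -0.09 for Myod1, -0.08 for Calcr and -0.14 for Cd34 changed sign without the 12-month library (Myf5, Calcr, Cd34) or the 13-month library (Myod1), as did the 0.33 of Pax7 without the 13-month library. Centring on library medians, which shifts all genes alike, put Myod1, Calcr and Cd34 at 0.13, 0.14 and 0.08. Cxcr4, a chemokine receptor of the cells, stood at 40.1 and 19.5 TPM against 69.3, 40.0 and 71.1 TPM, a difference of 1.03. Fgfr4, a growth factor receptor, stood at 61.3 and 60.5 TPM against 63.7, 101 and 170.3 TPM. Of the 26 identity and quiescence genes, all tested, 18 differences were above 0 and 8 below, with a median of 0.33 that became -0.05 without the 13-month library.

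Division and differentiation genes were low. Mki67, a marker of dividing cells, stood at 3.61 and 11.5 TPM in the middle-aged libraries and at 2.35, 5.54 and 4.0 TPM in the old ones, which overlap. Cenpe, a kinetochore motor, stood at 17.4 and 17.8 TPM against 1.51, 0.68 and 0.73 TPM, a log2 difference of -3.26. Cdc6, which loads the replicative helicase, stood at 14.2 and 7.99 TPM against 0.87, 3.28 and 1.91 TPM. Mki67, Cenpe and Cdc6 reached the mean of 5 TPM only through the middle-aged libraries, with old means of 3.96, 0.97 and 2.02 TPM. The filter thus favoured their direction. Pcna, the polymerase clamp, lay on the other side, at 61.1 and 55.03 TPM against 95.3, 113 and 71.3 TPM. Of 17 tested replication and mitosis genes, 10 were below 0 and 7 above. Of 12 tested myogenic commitment and differentiation genes, 6 were above 0 and 6 below, and contractile genes lay on both sides. Tnnt1 and Myl1, contractile proteins of fibres, were listed at 0 in both middle-aged libraries and stood at 4.52 to 16.1 and 4.14 to 19.7 TPM in the old ones. Tnnt1 was also at 7.50 to 26.5 TPM in the young libraries. Tnnt1 and Myl1 thus reached the mean of 5 TPM only through the old libraries. Tnnt2, Tnnc1 and Actc1, further contractile genes looked up after the values were seen, overlapped between the ages at log2 differences of -1.07, -0.92 and -0.86.

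Notch and Wnt signalling set the balance between quiescence and activation in these cells. Notch1, a receptor, stood at 6.38 and 6.81 TPM in the middle-aged libraries and at 34.7, 8.26 and 38.9 TPM in the old ones, a log2 difference of 1.64. Numb, an inhibitor of Notch, stood at 8.78 and 15.5 TPM against 18.4, 24.1 and 47.4 TPM, and the coactivator Maml1 at 30.1 and 21.4 TPM against 15.5, 18.7 and 14.3 TPM. The Notch list had 11 differences above 0 and 4 below of 15 tested, with a median of 0.33 that became -0.07 without the 13-month library. In the Wnt list, 19 of 22 differences were above 0, the median was 0.40 (0.31 to 0.65 under the alternatives), and the old libraries lay above both middle-aged ones for 7 (31.8%, against 9.96% of all genes) and below both for 0. No Wnt gene had an unadjusted p under 0.05 in limma. Tcf7l2, a nuclear effector of the pathway, stood at 56.1 and 35.3 TPM against 71.3, 92.5 and 80.1 TPM. Apc, of the complex that destroys beta-catenin, stood at 38.03 and 36.2 TPM against 42.6, 65.6 and 64.2 TPM. Axin2, of the same complex and a target of the pathway, stood at 3.01 and 0 TPM against 12.5, 6.98 and 13.1 TPM. Axin2 reached the mean of 5 TPM only through the old libraries.

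Growth factor genes of the TGF-beta and FGF families did not lie on one side. Tgfb2, a ligand, stood at 36.7 and 102 TPM in the middle-aged libraries and at 26.8, 26.3 and 17.8 TPM in the old ones, a log2 difference of -1.36 that was -0.64 without the 13-month library. Ltbp1, which holds latent ligand in the matrix, stood at 64.1 and 58.4 TPM against 76.6, 144 and 133 TPM. Ltbp1 and Tgfb2 thus lay in opposite directions. Id3, a target of BMP signals, stood at 188 and 139 TPM against 109, 109 and 87.8 TPM. Spry2, an inhibitor of FGF signals, stood at 63.7 and 39.9 TPM against 32.5, 28.7 and 23.8 TPM, and the ligand Fgf7 at 10.2 and 6.01 TPM against 21.2, 35.1 and 21.04 TPM. The TGF-beta and BMP list had 19 differences above 0 and 8 below, the FGF list 10 and 7.

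Matrix genes lay mostly above 0 in old cells. Sparc, a matrix protein that binds collagen, stood at 356 and 391.5 TPM in the middle-aged libraries and at 558, 649 and 975 TPM in the old ones, a log2 difference of 0.92 (standard error 0.32, limma adjusted p = 0.598). Bgn, the proteoglycan biglycan, stood at 304 and 389.9 TPM against 446, 694 and 744 TPM, a difference of 0.83. Old library 3 was the highest of the 5 for both. Fn1, fibronectin, lay on the other side, at 53.1 and 78.2 TPM against 24.4, 30.0 and 25.3 TPM, a difference of -1.25. Lamc1, a laminin chain of the basement membrane, stood at 127 and 111 TPM against 191, 132 and 244 TPM. Col18a1, another basement membrane collagen, stood at 4.06 and 0 TPM against 6.46, 15.4 and 11.01 TPM. Col18a1 reached the mean of 5 TPM only through the old libraries. Of 31 tested interstitial matrix genes, 21 differences were above 0 and 10 below (median 0.33, and 0.09 to 0.51 with 1 library left out). Of 21 basement membrane genes, 16 were above 0 and 5 below (median 0.46, and 0.18 to 0.63 with 1 library left out). Every old library lay above both middle-aged ones for 5 (23.8%) and below both for 2 (9.52%), against 9.96% and 14% of all genes.

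Autophagy genes lay on both sides. Map1lc3b and Gabarapl2, which coat the autophagosome, stood at 34.6 and 52.7 TPM against 144, 87.1 and 95.9 TPM, and at 4.76 and 8.46 TPM against 27.4, 27.5 and 17.3 TPM. Ctsd, a lysosomal protease, stood at 58.5 and 40.96 TPM in the middle-aged and at 97.5, 91.4 and 84.3 TPM in the old libraries. For these 3 genes every old library was above both middle-aged ones, and for Becn1 below both. Becn1, which starts autophagosomes, stood at 63.3 and 47.3 TPM against 14.7, 34.3 and 27.03 TPM. Of 27 tested members the old libraries lay above both middle-aged ones for 8 (29.6%, against 9.96% of all genes) and below both for 5 (18.5%, near the 14% of all genes). The median of 0.35 became -0.07 without the 13-month library.

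Among 31 proteasome subunits, Psmc1 was listed at 0 in both middle-aged libraries and stood at 23.1, 27.2 and 23.3 TPM in the old and 7.23 to 19.8 TPM in the young ones. Psmc1 reached the mean of 5 TPM only through the old libraries. Its log2 difference of 4.67 was the same without either middle-aged library, each time against a lone value of 0. In limma without the intensity trend Psmc1 passed the threshold (adjusted p = 0.0152). Psmb7 and Psmb6 lay the other way, at 43.6 and 32.3 TPM against 15.8, 18.5 and 20.3 TPM, and at 42.96 and 49.4 TPM against 21.5, 15.8 and 20.9 TPM. The list had 13 differences above 0 and 18 below, with a median of -0.08. Of 77 cytosolic ribosomal protein genes, 53 were below 0 and 24 above, with a median of -0.23. After centring on library medians it was -0.01, and that of all genes 0.15. Rps19 stood at 456 and 456 TPM against 282, 165 and 238 TPM, and Rpl23a at 47.7 and 26.1 TPM against 70.1, 71.2 and 109.7 TPM. Rps21 was listed at 0 in the 12-month library and stood at 29.2 TPM in the 13-month library and 84.8, 218 and 75.1 TPM in the old ones. Without the 13-month library Rps21 passed the limma threshold (adjusted p = 0.0197). Ribosomal protein genes have many near-identical pseudogenes, so their reads may be split.

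Energy metabolism showed single genes rather than whole lists. Slc2a1, the glucose transporter, stood at 76.2 and 73.8 TPM in the middle-aged libraries and at 164, 101 and 175 TPM in the old ones, with young libraries far lower at 15.4 to 29.3 TPM. Slc16a1, the lactate transporter, stood at 30.3 and 22.4 TPM against 15.5, 11.7 and 9.33 TPM. The old libraries lay above both middle-aged ones for Slc2a1 and below both for Slc16a1. Pkm, the last enzyme of glycolysis, stood at 28.5 and 33.8 TPM against 34.4, 68.2 and 67.7 TPM. Of 19 glycolysis genes 9 were above 0 and 10 below. In the nuclear-encoded respiratory chain 24 of 40 were above 0. Uqcrc1, of complex III, was listed at 0 in both middle-aged libraries and stood at 21.98, 44.3 and 22.5 TPM in the old ones. Uqcrc1 thus reached the mean of 5 TPM only through the old libraries. Ndufa4 stood at 22.5 and 20.1 TPM against 73.2, 49.02 and 45.8 TPM, while the cytochrome oxidase subunits Cox6c and Cox7a2 lay below, at log2 differences of -1.30 and -1.34. Of 13 mitochondrially encoded genes 10 were below 0. Among them mt-Nd2 stood at 10055 and 8389 TPM against 7179, 8212 and 5143 TPM, and mt-Co2 overlapped at 7411 and 5136 TPM against 13092, 9947 and 4896 TPM. Of 27 genes for the U1 particle and polyadenylation 13 were above 0 and 14 below, among them Papola (186 and 119.6 TPM against 63.9, 84.98 and 127 TPM), Cstf2 (15.5 and 7.28 TPM against 18.4, 22.8 and 20.3 TPM) and Snrpb (7.25 and 4.13 TPM against 7.87, 29.2 and 11.6 TPM).

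Markers of Schwann cells, the glia of nerves, had the highest median of all lists with 3 or more members tested, at 1.38. In bulk RNA, more cells of a type and more RNA per cell cannot be told apart. All 14 markers were tested, 13 had a difference above 0, and the old libraries lay above both middle-aged ones for 8 (57.1%, against 9.96% of all genes) and below both for 0. At an unadjusted p under 0.05, 2 of the 14 were higher and 0 lower, against 3.13% and 4.24% of all genes. The median was 0.68 without the 12-month and 1.84 without the 13-month library. Kcna1, a potassium channel of myelinated axons and glia, stood at 17.1 and 36.1 TPM in the middle-aged libraries and at 70.2, 116 and 61.2 TPM in the old ones, a log2 difference of 1.63 (limma adjusted p = 0.537). No old value fell within the middle-aged range. Mal, a protein of myelin membranes, stood at 5.50 and 21.9 TPM against 22.4, 92.3 and 22.9 TPM. Pmp22, the most abundant, stood at 809.8 and 993 TPM against 1425, 5013 and 1291 TPM. Old library 2 was the highest for all 3 genes. Summed over the list, the level was 1166 and 1483 TPM in the middle-aged, 1990.3, 6585 and 1935 TPM in the old and 936 to 2083 TPM in the young libraries. No marker was at 0 in all 5 libraries, and the part of these cells in the other differences was not tested.

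Fibroblast markers also lay mostly above 0. Fibro-adipogenic progenitor and fibroblast markers had 10 differences above 0 and 4 below of 14 tested (median 0.54), with summed levels of 1478 and 1136 TPM in the middle-aged and 1994, 1395 and 1944 TPM in the old libraries. Pi16 and Clec3b were at 0 in all 5. Ly6a, which encodes the surface protein Sca-1 of these progenitors, stood at 187 and 39.7 TPM in the middle-aged libraries and was listed at 0 in all 3 old ones. Ly6a thus reached the mean of 5 TPM only through the middle-aged libraries. Serping1, Dcn and Col3a1, secreted by fibroblasts, had differences of 0.65, 0.61 and 0.68, and Dcn reached 923 TPM in old library 1. In young single cells of the series, these 3 were found at 1 TPM or more in 52, 22 and 29 of 64 wells, and Ly6a in 0. They thus do not mark fibroblasts alone here. Fibroblasts also make Sparc and Bgn, and the part of fibroblasts in the matrix values was not tested.

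Macrophage, lymphocyte and tenocyte markers summed to more in both middle-aged libraries than in any old one, and endothelial, smooth muscle and neutrophil sums overlapped. Macrophage and monocyte markers summed to 137 and 97.8 TPM in the middle-aged and to 51.7, 28.4 and 60.4 TPM in the old libraries, with Cd14, C1qa and Tyrobp at 0 in all 5. Lyz2 alone stood at 78.7 and 58.2 TPM against 35.6, 4.78 and 52.2 TPM, and Cd68 at 17.2 and 12.1 TPM against 0, 15.4 and 3.43 TPM. Lymphocyte markers summed to 84.2 and 48.5 TPM against 36.7, 20.6 and 11.6 TPM. Old library 3 had the lowest lymphocyte sum of the 5. Only 4 of 13 lymphocyte markers were tested, some only through the middle-aged values, and their median of -1.75 was -0.34 among members above 0 in all 5 libraries. Among these, Ms4a1 stood at 11.01 and 13.1 TPM against 0, 1.82 and 2.00 TPM, and Cd3e at 28.4 and 10.1 TPM against 0, 6.20 and 0 TPM. Tenocyte markers summed to 139.7 and 153 TPM against 93.7, 107 and 74.8 TPM, led by Chad at 47.5 and 46.4 TPM against 5.16, 15.6 and 1.89 TPM. Endothelial markers summed to 127 and 78.6 TPM against 81.5, 74.9 and 89.4 TPM, and Emcn among them stood at 13.7 and 9.48 TPM against 2.32, 2.94 and 6.09 TPM. Emcn reached the mean of 5 TPM only through the middle-aged libraries, with an old mean of 3.78 TPM. Smooth muscle and pericyte markers summed to 695 and 745 TPM against 546, 841 and 980.1 TPM, and neutrophil markers to 21.04 and 23.4 TPM against 1.70, 9.62 and 31.7 TPM. The part of these cells in the genes lower in old libraries, Irf7 among them, was not tested.

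**Figure D5:**
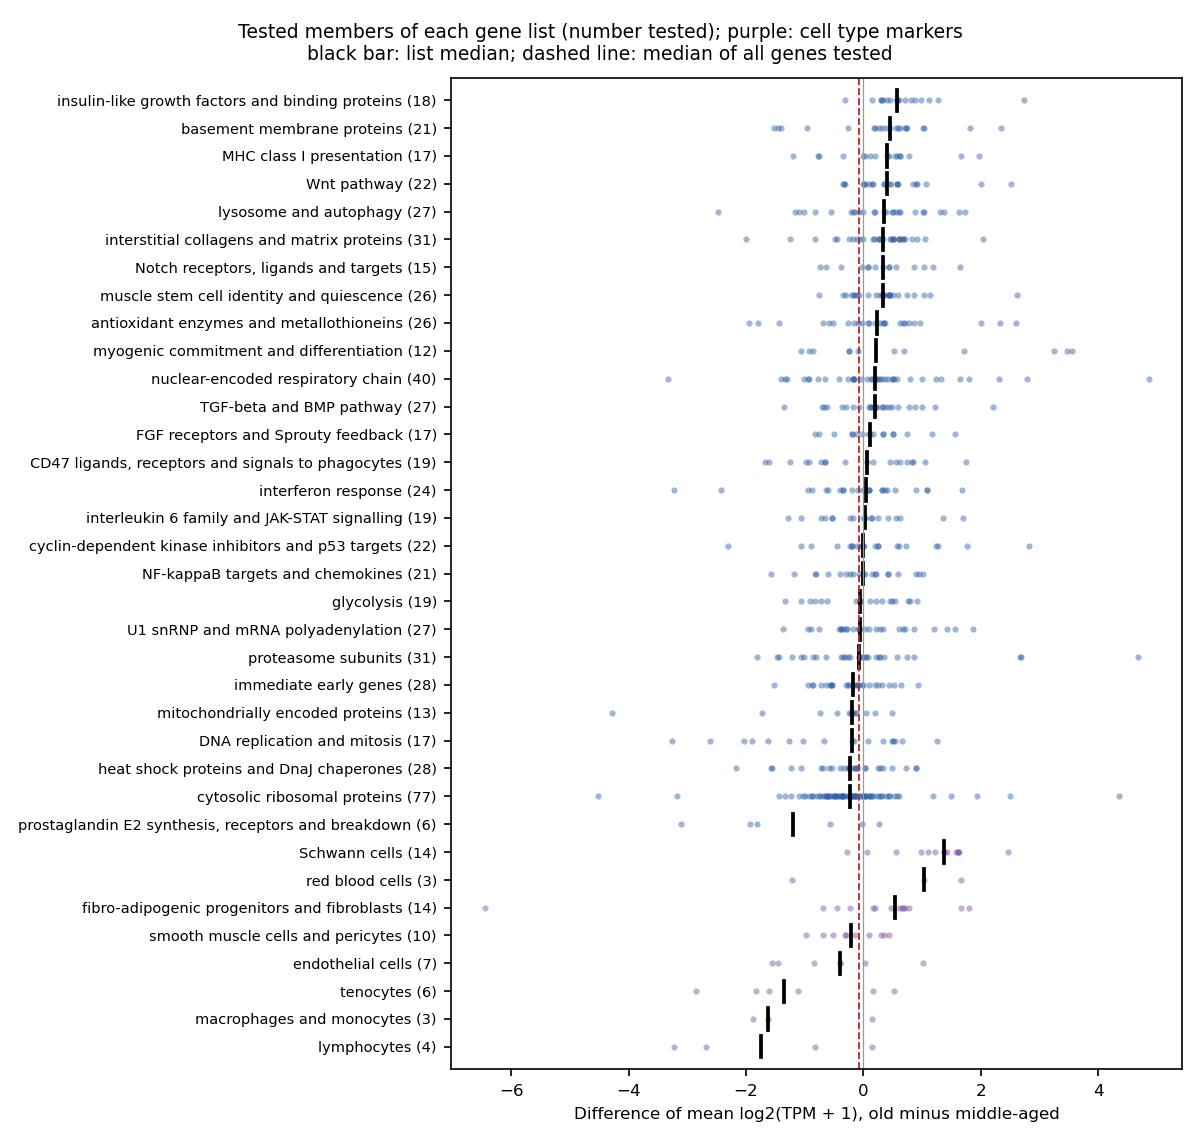
Difference of mean log2(TPM + 1), old minus middle-aged, for each tested member (points) of the gene lists with 3 or more tested members, with the number tested in brackets. List medians (black bars) run from -1.75 for lymphocyte markers (4 of 13 tested) to 1.38 for Schwann cell markers, many lie close to the median of all genes at -0.07 (dashed line), and members of one list often lie on both sides of that line.

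The same genes were looked up in single cells of 1 old mouse, sequenced 1 cell a well. There are 31 old wells and no middle-aged ones, so they allow no comparison of these ages. Detection in these wells was low even for abundant genes. The 77 cytosolic ribosomal protein genes were found in a median of 10 of 31 old wells (6 to 15). The counts below are thus not shares of cells that express a gene, and a count of 0 does not show absence. Cd47 was found, at 1 TPM or more, in 3 of 31 old wells (9.68%, exact Clopper-Pearson 95% interval 2.04% to 25.8%). Pax7 was found in 6 and Myf5 in 10. Hspa5 and Mt2 were found in 8 each, Errfi1 in 7, B2m in 6 and Peg3 in 11. The Schwann markers Kcna1 and Mal were found in 0 of 31 old wells, which allows a share of wells with the gene of up to 9.68% and says nothing of cells that express it below detection, while Pmp22 was found in 5. Of the 14 Schwann markers, 12 were in 0 old wells, as were all 14 macrophage and all 13 lymphocyte markers. The 12 leading genes higher in old libraries were found in a median of 1.5 old wells and the 12 lower in a median of 1. Intervals and limits cover counting error only.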

How the data were processed

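The deposited bulk table holds TPM values of 8 libraries. The labels' protocols give a Qiagen micro kit for RNA, NuGEN Ovation amplification, TruSeq libraries and single reads of 75 bases. STAR and mm10 are named in the submitters' processing notes, while no source used here names the quantifier, its annotation or its strand setting. The table has 45798 entries. Of these, 92 spike-ins and 2423 other entries were left out, and 42782 of the 43283 Ensembl identifiers were found in GENCODE vM21, which gave symbols and mm10 positions. TPM keep neither depth nor counts, so no count model was used and no interval for a level was computed from reads.

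TPM were taken to log2(TPM + 1), so that fold changes of low genes are understated. Genes with a mean of 5 TPM or more over the 5 old and middle-aged libraries were kept. A gene low at one age could reach that mean through the other age alone. Low genes were thus kept more readily where the ages differed. limma 3.58.1 in R 4.3.3, with intensity trend, was fitted to group means of all 8 libraries, which share 1 estimate of the spread, and p-values were adjusted by Benjamini-Hochberg over 12044 genes with a threshold of 0.05. The fit was checked on simulated data. The text names 12 genes of direct interest. It also names the 12 protein-coding genes of smallest unadjusted p in each direction, among those with values above 0 in all 5 libraries and no overlap of the ages. From each of 37 gene and marker lists it names up to 4 tested members of smallest unadjusted p. A gene that this rule names is not reported here. Comparison, members and lists were chosen with earlier results of these data known. Cd47 was also tested by an exact permutation test with scipy 1.17.1. The p-values measure the spread between these libraries, which the series' design text describes as from separate mice. Single wells, also deposited as TPM, were counted as holding a gene at 1 TPM or more. Promoters came from RefSeq. For each result 19 alternatives were computed, covering pseudocount, low-value filter, scaling, variance trend, libraries in the fit and the replicate number as a block.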

Additional observations from a re-analysis of the deposited data

How the results depend on the processing

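The number of genes past the limma threshold, 0 with all libraries, stayed 0 in 15 of the 19 alternatives. It was 1 with log2(TPM + 0.1) (Rpl36-ps2, listed at 0 in both middle-aged libraries), 59 without the intensity trend (58 of them listed at 0 in at least 1 of the 5 libraries), and 0 to 277 when 1 library was left out. The counts of 200 without the 12-month and 277 without the 13-month library assume that the lone middle-aged library varies like the other groups. With the replicate number as a block the count was 0, with 326 genes higher and 396 lower at an unadjusted p under 0.05 against 377 and 511, and Cd47 stood at 0.80. Deviations from the group means correlated at r = -0.014 and -0.017 for same-numbered libraries and at -0.003 to 0.017 for other pairs. The 2 middle-aged libraries deviate as mirror images of each other, so these pairs are not independent and cannot decide on pairing. The replicate numbers name no shared animal and were not taken as pairs. Cd47 was above 0 in all 19 alternatives. Of 2250 values of 121 other genes, 2217 kept their sign and side of the threshold, 24 in 8 genes changed sign, and 9 passed the threshold with fewer libraries or no trend (Trib1, Ubqln4, Syt2, Rps21, Psmc1 and H19). With 1 library left out, Pax7 ranged from -0.10 to 0.75, Myf5 from -0.71 to 0.11 (0.03 without old library 1), Myod1 from -1.53 to 1.35, Calcr from -0.88 to 0.72, Cd34 from -0.81 to 0.54, Mki67 from -1.39 to 0.05, Cdkn1a from -1.10 to 1.58 and Ptger4 from -0.71 to 0.65. Centring on library medians gave Myod1 0.13, Calcr 0.14, Cd34 0.08 and Ptger4 0.19. Quantile normalization gave Myod1 0.65 and Ptger4 0.07, the replicate block gave 0.27 and 0.01, and rescaling without mitochondrial genes gave Ptger4 0.02. Of 696 list medians 638 moved by less than their spread. The cause of these shifts was not tested. With 2 libraries on one side and no counts, small differences could not be resolved.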
